A study of Mus musculus with 2 samples.

Results

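The genes described here are 10 that mark or direct regulatory and helper T cells: Foxp3, Ikzf2, Il2ra, Tnfrsf4, Tnfrsf18, Izumo1r, Maf, Rora, Gata3 and Tbx21. They were found by gene symbol among the 32285 genes of both deposited matrices, and all 10 were present. The cells came from female BALB/c mice (genotype label BALB/cAnNCrl) of 7 to 8 weeks that carried liver metastases of 4T1, a mouse breast cancer line, seeded by hemisplenectomy. The mice received, by hepatic arterial infusion, either vehicle or CBL0137 at one of 2 doses, labelled low and high. CBL0137 is a curaxin, a drug that disturbs the binding of DNA to histones. The cells were taken 5 days later. Which amounts of drug the labels low and high stand for is not stated there. Each of the 3 groups was a pool of 2 mice, all of them tumor-bearing, so a tumor-free group is not part of these data. The methods describe isolation of CD11b+ cells with beads, while the sample labels call the cells leukocytes. T cells were present in both libraries.

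T cells were barcodes with at least 2 UMIs (unique molecular identifiers, 1 for each captured transcript) of Cd3d, Cd3e and Cd3g together. Of the barcodes with 1 hashtag, 3098 of 8435 were T cells in the liver-labelled library and 459 of 2988 in the spleen-labelled library. The label T cell was checked with markers that the gate did not use. Trbc2, a constant segment of the T cell receptor beta chain, had a UMI in 83.7% of the T cells of the liver-labelled library and in 76.5% of those of the spleen-labelled library. Trac, the constant segment of the alpha chain, had a UMI in 74.3% and 64.7%.

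Regulatory T cells restrain other immune cells, and the transcription factor FOXP3 holds their identity. They carry the interleukin-2 receptor alpha chain (CD25, from Il2ra) and the costimulatory receptors OX40 (from Tnfrsf4) and GITR (from Tnfrsf18), and many express Helios (from Ikzf2) and folate receptor 4 (from Izumo1r). Helper T cells are set apart by their own transcription factors, with T-bet (from Tbx21) for type 1, GATA3 for type 2, RORα (from Rora) in type 17 and other tissue T cells, and c-MAF (from Maf) in interleukin-10-producing and follicular helper cells. In tumors, regulatory T cells are known for restraining antitumor responses, and OX40 and GITR are also switched on in activated helper and cytotoxic T cells.

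The 3 groups were mixed in each library and told apart by hashtags, which are antibodies that carry an oligonucleotide. These 15-base barcodes are shown because every group comparison rests on them, and each pair differed at 10 or 11 positions.
A0301, vehicle: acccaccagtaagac
A0305, low dose: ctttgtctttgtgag
A0310, high dose: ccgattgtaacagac

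In GENCODE mouse release 21, Foxp3 (ENSMUSG00000039521) lies on the plus strand at chrX:7573644-7595245, Il2ra (ENSMUSG00000026770) on the plus strand at chr2:11642807-11693193 and Tbx21 (ENSMUSG00000001444) on the minus strand at chr11:97098071-97115331. Tnfrsf4 (ENSMUSG00000029075, chr4:156013843-156016612) and Tnfrsf18 (ENSMUSG00000041954, chr4:156026164-156028895) are neighbors on the plus strand, 9551 bases apart. RefSeq start windows (GRCm38.p6, the 250 bases before the start, read on the strand of the gene) were held for 8 of the 10 genes, with 9 windows in all. The windows of 3 genes are shown, since Foxp3 and Il2ra were the pair furthest above expectation in the same cells, and Tbx21 the gene that met Foxp3 less often than expected. Each was searched on both strands for STAT5 (TTCNNNGAA), NF-κB (GGGA and CC with 4 bases between them), forkhead (TGTTTA), RUNX (TGTGGT) and AP-1 (TGANTCA) letters, and matches are in capitals.
Foxp3, chrX:7580233-7580482, plus strand: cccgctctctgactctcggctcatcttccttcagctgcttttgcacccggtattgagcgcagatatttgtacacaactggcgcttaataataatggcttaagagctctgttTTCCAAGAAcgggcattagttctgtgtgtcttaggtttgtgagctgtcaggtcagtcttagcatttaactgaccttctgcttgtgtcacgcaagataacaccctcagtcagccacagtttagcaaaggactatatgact
Il2ra, chr2:11642542-11642791, plus strand: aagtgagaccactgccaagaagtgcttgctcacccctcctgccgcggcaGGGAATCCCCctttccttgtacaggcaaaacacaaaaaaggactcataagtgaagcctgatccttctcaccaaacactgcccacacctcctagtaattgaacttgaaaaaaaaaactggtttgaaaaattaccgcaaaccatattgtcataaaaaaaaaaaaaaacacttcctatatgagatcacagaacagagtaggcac
Tbx21, chr11:97115332-97115581, minus strand: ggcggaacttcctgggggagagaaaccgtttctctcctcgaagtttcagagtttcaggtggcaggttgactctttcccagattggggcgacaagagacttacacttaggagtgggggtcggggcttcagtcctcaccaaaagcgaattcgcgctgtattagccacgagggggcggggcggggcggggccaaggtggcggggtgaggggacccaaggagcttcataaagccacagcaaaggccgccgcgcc

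RefSeq gave 2 starts for Foxp3. The window of the other (chrX:7579426-7579675) overlaps exons of Foxp3 and of the RNA Flicr, is not shown, and held 1 forkhead match 177 bases before its start. The Foxp3 window shown lies inside the annotated gene, 6839 bases after its GENCODE start, and overlaps an exon of Flicr. It held 1 STAT5 match, 139 bases before the RefSeq start. The Il2ra window overlapped no annotated exon and held 1 NF-κB match, 201 bases before the start. The Tbx21 window held none of the 5 letter patterns. Among all 32851 RefSeq windows of this length, 7.02% held the STAT5 letters, 17.6% the NF-κB letters, 12.0% the forkhead letters, 14.0% the RUNX letters and 6.75% the AP-1 letters, so a match is a common description of a window and not a binding site.

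Transcripts of liver cells went against the library labels: the hepatocyte markers summed to 0.0728 CPM (UMIs per 1000000 gene UMIs) in the liver-labelled library and 55.7 CPM in the spleen-labelled library, the Kupffer cell markers to 0.845 and 219 CPM, and the endothelial markers to 0.932 and 277 CPM. The tissue behind each library is therefore given only as "labelled" throughout. The libraries shared 15 cell barcodes, 0.156% and 0.311% of their barcodes, of which 1 was a T cell in both. Depth was 79585807 and 35672251 gene UMIs, with medians of 4673 and 3368.5 UMIs a barcode.

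RNA of other cells was present in T cell barcodes, and its amount and source differed between the groups. In the liver-labelled library, 27.2% of the vehicle T cells, 22.5% at the low dose and 8.35% at the high dose also met the gate of another cell class, and the neutrophil transcripts S100a8 and S100a9 took 19.1%, 17.2% and 7.07% of all T cell UMIs. The corresponding shares of the spleen-labelled library were 52.6%, 45.7% and 37.9%, and 15.6%, 12.7% and 5.10%. Each level is therefore also given over unmixed T cells, meaning T cells that met no gate of another class. The natural killer gate was not applied to T cells, since it takes barcodes without Cd3 UMIs. Unmixed T cells still carried other RNA, and S100a8 and S100a9 took at most 0.219% of their UMIs in any group. There was no red cell gate. In vehicle, low and high dose, the hemoglobin genes Hba-a1 and Hbb-bs summed to 991, 1157 and 2423 CPM in unmixed T cells of the liver-labelled library. In those of the spleen-labelled library they summed to 23.6, 6273 and 21.7 CPM. The library labelled liver held 598 vehicle, 873 low dose and 1054 high dose unmixed T cells, and the spleen-labelled library 36, 89 and 136. The median log2 ratio of all genes, high dose over vehicle, was 0.36 in the T cells of either library, and 0.033 and 0.15 in the unmixed T cells of the libraries labelled liver and spleen. Each group is 1 pooled sample per library, so no test was possible, and 95% intervals cover counting error only, not the spread between mice or the UMIs that come together in 1 cell.

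In the liver-labelled library most UMIs of each member except Tbx21 were in T cells, with Foxp3 the most confined. Of the Foxp3 UMIs, 98.9% lay in T cells in the liver-labelled library and 100% in the spleen-labelled library. No Foxp3 UMI was found in 2423 neutrophil-class or in 1296 B cell-class barcodes of the liver-labelled library, which allows shares of up to 0.124% and 0.231%. Free RNA of Foxp3 was thus not detectable in these classes, whose median depths were 5541 and 3586.5 UMIs.

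Of the other regulatory T cell genes in the liver-labelled library, T cells held 96.8% of the UMIs of Izumo1r, 93.8% of Tnfrsf4, 89.8% of Il2ra, 83.6% of Tnfrsf18 and 77.3% of Ikzf2. The helper T cell factors were shared more widely. T cells held 88.1% of Gata3 and 82.0% of Rora UMIs in this library, but 69.9% of Maf, with 17.1% in macrophages or monocytes, and 40.2% of Tbx21, with 45.1% in natural killer cells. T cells of the spleen-labelled library held 22.4% of its Maf UMIs. Endothelial-class barcodes held 26.0% of them at 1849 CPM, macrophage or monocyte barcodes 27.4%, and barcodes of more than 1 class 22.0%. Gata3, which breast epithelium also uses, had 42.6% of its UMIs in T cells of that library and 35.3% in barcodes of the 4T1 tumor cell class.

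**Figure D1:**
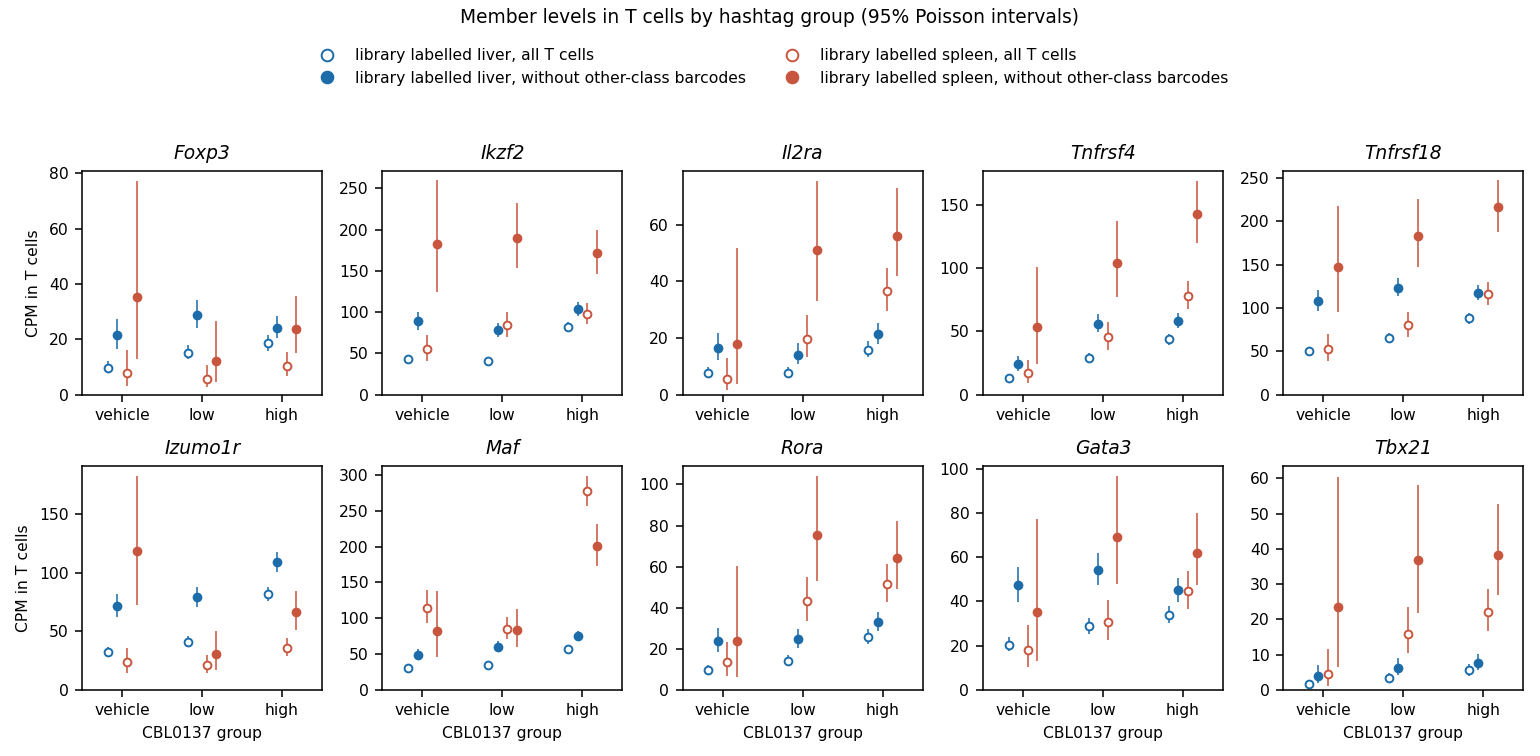
Levels of the 10 genes in T cells, in CPM, for vehicle, low dose and high dose in each library; open points are all T cells, filled points are unmixed T cells, and bars are exact 95% Poisson intervals (counting error only). For the liver-labelled library the filled points of Tnfrsf4 run from 24.2 CPM in vehicle to 58.2 CPM at the high dose, while those of Foxp3 lie between 21.5 and 28.8 CPM.

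Foxp3, the defining factor of regulatory T cells, had a UMI in 173 T cells of the liver-labelled library, 40 in vehicle, 64 at the low dose and 69 at the high dose. Of these, 79 had 1 Foxp3 UMI, 46 had 2 and 48 had 3 or more. By their coreceptor UMIs, 69 were CD4 (Cd4 without Cd8a or Cd8b1), 5 were CD8, 4 had both and 95 had neither, so most could not be placed by coreceptor at this depth. The library labelled spleen held 16 Foxp3-positive T cells, 2 in vehicle, 4 at the low dose and 10 at the high dose. Its values for this gene rest on few cells.

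The Foxp3 level in unmixed T cells of the liver-labelled library was 21.5 CPM in vehicle, 28.8 CPM at the low dose and 24.0 CPM at the high dose (65, 124 and 147 UMIs in 32, 61 and 64 cells). The log2 ratio was 0.16 for the high dose (95% interval -0.27 to 0.60) and 0.42 for the low dose (-0.02 to 0.88), so both intervals hold 0. Over all T cells the levels were 9.70, 15.2 and 18.6 CPM with a log2 ratio of 0.94 at the high dose. The ratio was thus smaller where barcodes that met the gate of another class were left out.

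After each cell was thinned to 2000 UMIs, a Foxp3 UMI was found in 5 of 209 vehicle CD4 T cells (2.39%, exact interval 0.781 to 5.49), in 12 of 290 low dose CD4 T cells (4.14%, 2.16 to 7.12) and in 20 of 396 high dose CD4 T cells (5.05%, 3.11 to 7.69). Without thinning the Foxp3 shares were 6.94%, 7.85% and 7.56%. The order of the groups changed with the thinning and all 3 intervals overlapped, so no order of the Foxp3 shares could be read. In CD8 T cells, which should mostly lack the gene, the thinned share over all groups was 0.41%. A Foxp3 UMI was found in 0 of 4, 1 of 16 and 1 of 44 thinned CD4 T cells of the spleen-labelled library. The high dose value depends on the hashtag calls, since both MULTIseqDemux and the dominant hashtag gave 5 of 55 (9.09%).

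Next, the other members were compared between T cells with and without a Foxp3 UMI. In T cells of the liver-labelled library, 8 of the 9 other members were more than 1.5-fold higher where Foxp3 was detected, with Tbx21 the exception. The 8 had at least 30 UMIs in the Foxp3-positive cells and Tbx21 did not. This minimum is met through the cells in which a gene is high, and of all genes that met it 49.1% of 4802 were higher, and 23.1% of 4031 in unmixed T cells, so the count itself is a description. Of the Foxp3-positive T cells 157 of 173 were unmixed, and of the Foxp3-negative ones 2368 of 2925.

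Among the surface receptors and Helios, Ikzf2 had a UMI in 131 of 173 Foxp3-positive T cells (75.7%) and in 5.64% of Foxp3-negative T cells, although the Foxp3-positive cells were the shallower ones, with a median of 3828 against 5261 UMIs. The Ikzf2 log2 ratio of CPM was 5.23 over all T cells, 4.69 over unmixed T cells and 3.96 within CD4 T cells. Il2ra, the receptor chain by which regulatory T cells take up interleukin-2, had a UMI in 40.5% against 2.26% and a log2 ratio of 5.17 (4.61 unmixed, 4.14 within CD4). Tnfrsf4 was found in 54.9% against 5.85% with a log2 ratio of 4.68 (4.10 unmixed, 3.35 within CD4). These 3 genes ranked 4, 6 and 10 of the 4802 genes by this ratio.

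Izumo1r had a UMI in 68.8% of Foxp3-positive and 16.2% of Foxp3-negative T cells, with a log2 ratio of 3.20 and a rank of 34. Tnfrsf18 was more widespread, with 70.5% against 31.5% and a log2 ratio of 2.85 (rank 53). Both therefore also had UMIs in many T cells in which no Foxp3 UMI was seen, and a missing UMI at this depth does not show that a cell lacks the transcript. The ratios of both genes are over all T cells, in which Foxp3-negative barcodes were more often mixed. For Ikzf2, Il2ra and Tnfrsf4 the ratio was smaller in unmixed T cells.

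Of the helper T cell factors, Rora had a log2 ratio of 3.58 (rank 22) and a UMI in 37.0% against 6.09% of cells. Maf had a log2 ratio of 3.54 (rank 25) and a UMI in 52.0% against 7.86%. The Rora and Maf ratios are likewise over all T cells, mixed ones included. Gata3, which a part of tissue regulatory T cells is known to express, had a log2 ratio of 2.27 (rank 95), 1.59 in unmixed T cells and 1.11 within CD4 T cells, and a UMI in 42.2% against 14.4%. Tbx21 was the exception, with a UMI in 1.16% of Foxp3-positive and 2.02% of Foxp3-negative T cells. Its log2 ratio was -0.34 (-2.65 to 1.25), too imprecise to place it on either side.

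The library labelled spleen gave the same direction for the regulatory genes on 16 cells. Ikzf2 had a UMI in 16 of 16 Foxp3-positive T cells, with a log2 ratio of 3.40, and the log2 ratios of Il2ra, Tnfrsf4, Tnfrsf18 and Izumo1r were 3.20, 3.18, 2.57 and 3.41. Maf and Gata3 had log2 ratios of 1.54 and 1.52, and Rora of 0.67 (-0.36 to 1.54). Within the few CD4 T cells of this library, Rora and Gata3 turned to -0.48 and -0.40. Tbx21 had a UMI in 0 of 16 Foxp3-positive cells, which allows a share of up to 18.8%, and in 15.3% of the other 443.

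**Figure D2:**
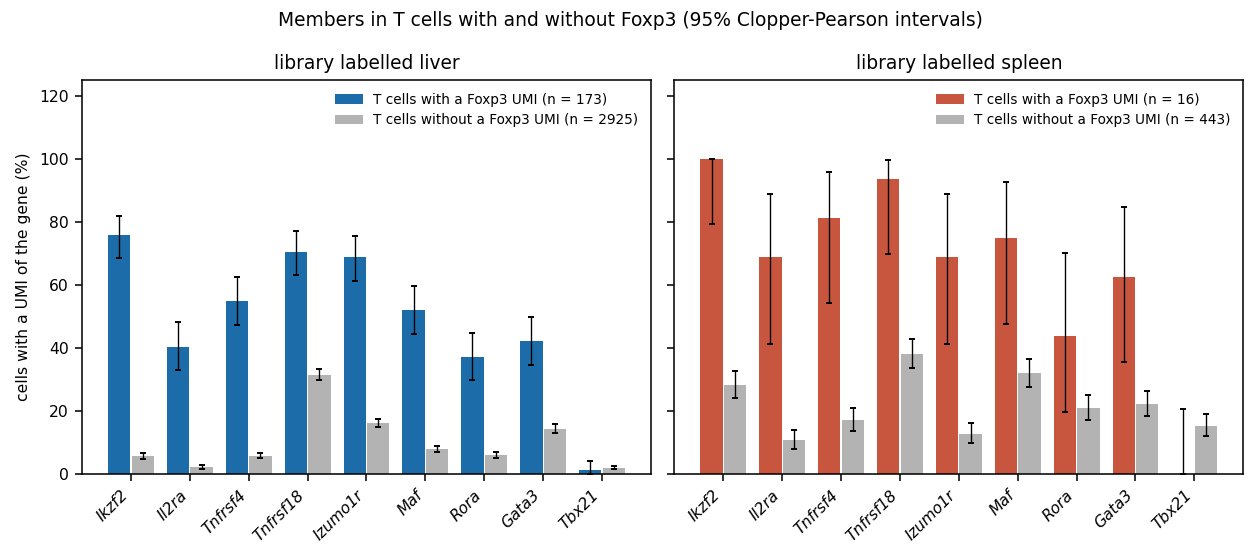
Share of T cells, in percent, with a UMI of each other member among T cells with a Foxp3 UMI (colored bars) and without one (gray bars), in each library; error bars are exact 95% Clopper-Pearson intervals. In the liver-labelled library 8 of the 9 colored bars stand above their gray bars, for example 75.7% against 5.64% for Ikzf2, and Tbx21 is at 1.16% against 2.02%.

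The regulatory genes also came together in single cells. At least 3 of Ikzf2, Il2ra, Tnfrsf4, Tnfrsf18 and Izumo1r were detected in 122 of 173 Foxp3-positive T cells of the liver-labelled library (70.5%) and in 117 of 2925 Foxp3-negative ones (4.00%). By group the share in Foxp3-positive cells was 57.5% in vehicle, 62.5% at the low dose and 85.5% at the high dose, and 16 of 32, 39 of 61 (63.9%) and 54 of 64 (84.4%) in unmixed cells. The median depth of these unmixed cells was 3469, 3817 and 4060 UMIs. After thinning to 2000 UMIs the shares were 10 of 32, 22 of 59 (37.3%) and 38 of 59 (64.4%). The share in Foxp3-negative cells was 3.97%, 2.54% and 5.46%. The shares of the spleen-labelled library were 93.8% of 16 and 14.2% of 443.

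To set pairs of genes against what depth alone gives, the number of unmixed T cells of the liver-labelled library with both genes was divided by the number expected from the separate shares within 10 bins of depth. Foxp3 and Il2ra met in 65 cells against 10.8 expected (6.02 times), Foxp3 and Ikzf2 in 116 against 24.1 (4.81 times) and Foxp3 and Tnfrsf4 in 85 against 19.0 (4.46 times). Maf and Rora met in 94 cells against 29.8 (3.15 times), and the neighboring genes Tnfrsf4 and Tnfrsf18 in 166 against 93.2 (1.78 times). Foxp3 and Tbx21 met in 2 cells against 4.32, below expectation on few cells. Gata3 and Tbx21, textbook opposites in helper T cells, met in 27 cells against 14.3 (1.89 times). This count covers all unmixed T cells, not helper T cells alone. Natural killer-class barcodes of this library had a UMI of Gata3 in 34.8% and of Tbx21 in 44.9%. The part of such cells in this pair was not tested. On the spleen-labelled side Foxp3 and Il2ra met in 8 unmixed T cells against 1.77, and Gata3 and Tbx21 in 18 against 15.5 (1.16 times). The pairs of Ikzf2 with members other than Foxp3 lay there between 0.88 and 1.29 times. These ratios pool the 3 groups and are descriptions of single libraries.

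**Figure D3:**
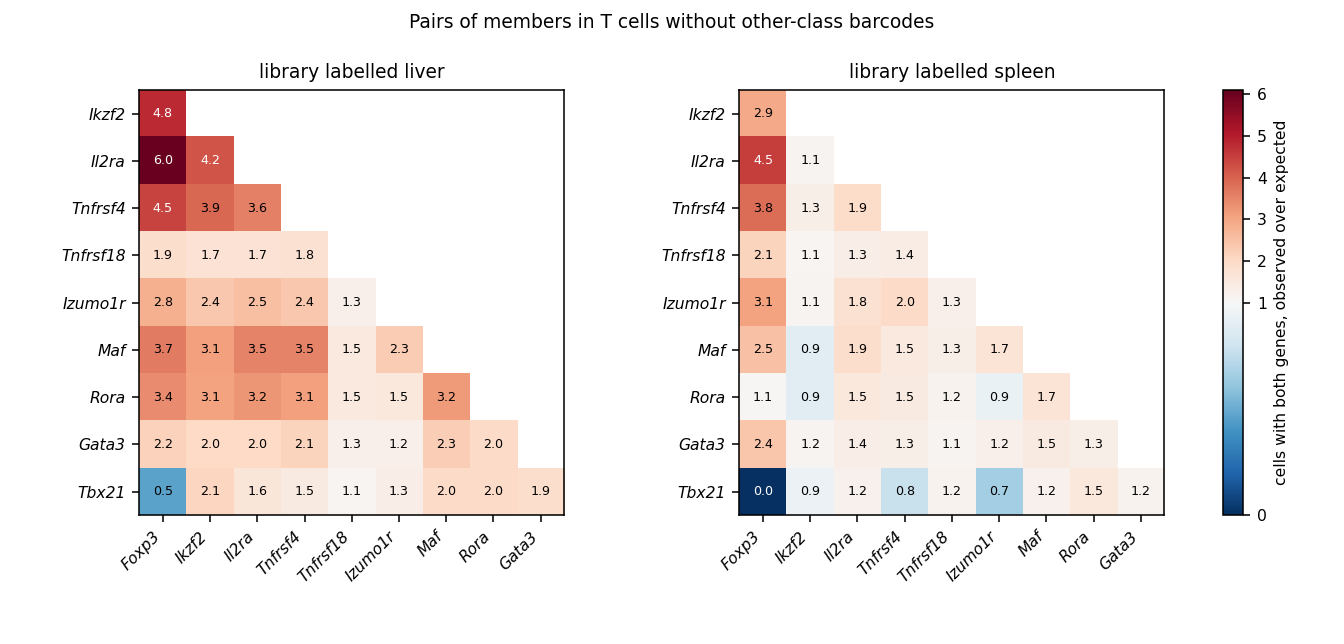
Observed over expected number of unmixed T cells with both genes of a pair, for the 45 pairs of the 10 genes in each library; expected numbers come from the share of each gene within 10 bins of depth. For the liver-labelled library the highest values are in the column of Foxp3, with 6.02 for Il2ra and 4.81 for Ikzf2, while Foxp3 with Tbx21 is 0.46.

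For the doses, a gene counted as past the fold when its CPM ratio reached 1.5 in either direction, with at least 20 UMIs in both groups together. Over all T cells of the liver-labelled library, 10 of 10 members were past the fold at the high dose in the higher direction, against 29.0% of all genes tested, and 0 in the lower, against 8.87%. Among unmixed T cells 4 of 10 were higher, against 8.27%, and 0 were lower, against 3.96%. The 4 were Tnfrsf4, Izumo1r, Maf and Tbx21. The other 6 were past the fold only where barcodes that also carried another class were counted, and Gata3 turned to the other side of 0 without them. The T cell markers (Cd3d, Cd3e, Cd3g, Trac, Trbc2, Lat and Cd5) summed to 2009 CPM in vehicle and 3721 CPM at the high dose over all T cells. In unmixed T cells their sum was 4629 and 4929 CPM. For the spleen-labelled library it was 1728 and 3150 CPM over all T cells, and 6035 and 5615 CPM in unmixed ones. The part of this rise in the member counts was not tested.

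At the low dose, which was compared with the same vehicle sample, 3 of 10 members of the liver-labelled library were higher (Foxp3, Tnfrsf4 and Tbx21), against 6.37% of genes, and 0 were lower, against 4.53%. In unmixed T cells Tnfrsf4 and Tbx21 were higher, against 5.55% of genes, and 0 members were lower, against 4.23%. At the high dose 9 of 10 members of the spleen-labelled library were higher, against 33.6%, and 0 lower, against 5.89%, with Foxp3 the 1 that was not past the fold. With the dominant hashtag in place of the HTODemux calls Foxp3 was past it too, at a log2 ratio of 1.32. In its unmixed T cells 6 were higher (Il2ra, Tnfrsf4, Maf, Rora, Gata3 and Tbx21), against 27.8%, and Izumo1r was lower, against 11.8%. At the low dose of that library 7 of 9 members were higher, against 14.7%, and 0 lower, against 6.54%, and unmixed T cells had 5 of 9 higher, against 18.4%, (Il2ra, Tnfrsf4, Rora, Gata3 and Tbx21) and Izumo1r lower, against 10.5%, with Foxp3 under the UMI minimum in both.

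**Figure D4:**
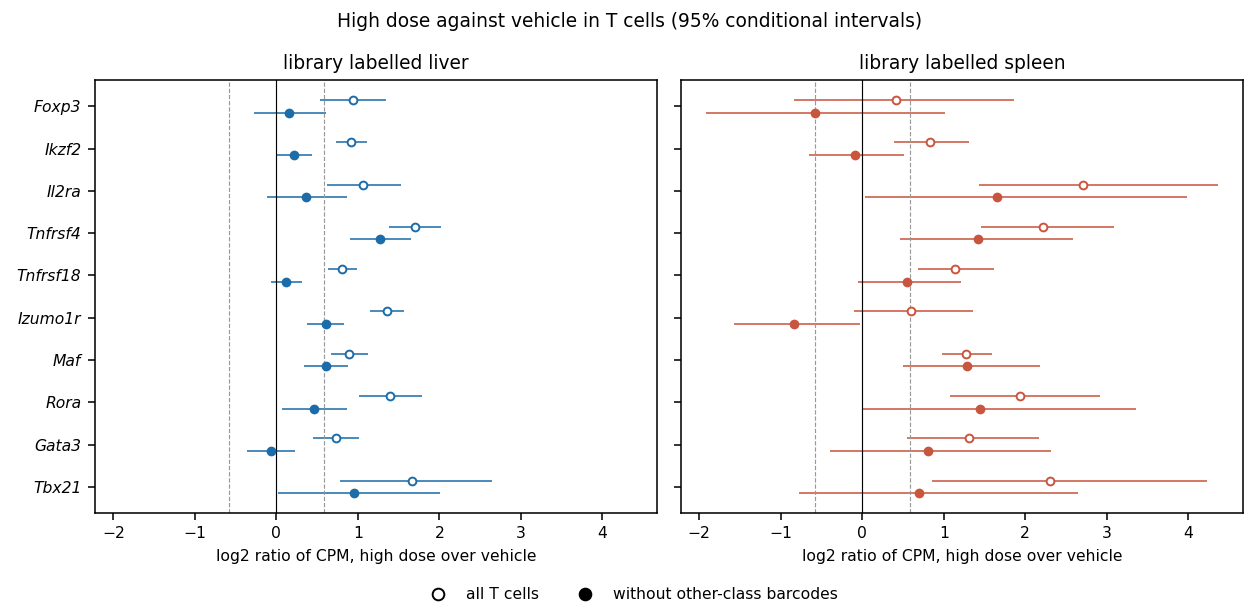
Log2 ratio of CPM, high dose over vehicle, for each gene in T cells of each library, with exact conditional 95% intervals (counting error only); open points are all T cells, filled points are unmixed T cells, and dashed lines mark the 1.5-fold rule. For the liver-labelled library each filled point lies left of its open point, and Tnfrsf4 (1.27), Tbx21 (0.95), Maf (0.61) and Izumo1r (0.60) are past the line without the mixed barcodes.

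Tnfrsf4, the costimulatory receptor OX40, had the highest ratio of the regulatory genes in the liver-labelled library at both doses, among all T cells and among unmixed ones. Its level in unmixed T cells was 24.2 CPM in vehicle, 56.0 CPM at the low dose and 58.2 CPM at the high dose (73, 241 and 356 UMIs). The log2 ratio was 1.27 at the high dose (0.90 to 1.65) and 1.21 at the low dose (0.83 to 1.61). Over all T cells it was 1.70 at the high dose, and 0.68 as a mean over cells. At the high dose 1 cell held 52 of the Tnfrsf4 UMIs. By cells, 6.35%, 8.02% and 12.3% of unmixed T cells had a UMI in vehicle, low and high dose, and 3.30%, 4.82% and 6.86% after thinning. Among unmixed T cells of the spleen-labelled library, Tnfrsf4 was 53.1, 104 and 143 CPM, with a log2 ratio of 1.43 at the high dose (0.46 to 2.58). The CD4 share of these cells was 8.33%, 11.2% and 22.8%, and within the CD4 ones, of which vehicle had 3, the Tnfrsf4 ratio at the high dose was 0.35 (-1.55 to 3.43). Within the CD8 ones it was 1.30 (-0.41 to 3.67) at the high dose and 2.21 (0.54 to 4.55) at the low dose, on 3 vehicle UMIs.

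Within Foxp3-positive unmixed T cells of the liver-labelled library, Tnfrsf4 was found in 10 of 32 vehicle cells (31.2%, 16.1 to 50), 31 of 61 low dose cells (50.8%, 37.7 to 63.9) and 44 of 64 high dose cells (68.8%, 55.9 to 79.8). Without thinning the vehicle and high dose intervals do not overlap, and the low dose overlaps both. These intervals treat the cells of 1 pool per group as independent and leave out the spread between mice. The comparison was also singled out after its values were seen. The median depth of these Foxp3-positive cells was 3469, 3817 and 4060 UMIs. After thinning the Tnfrsf4 shares were 25.0% of 32, 37.3% of 59 and 49.2% of 59, and the vehicle and high dose intervals overlap. The log2 ratio of Tnfrsf4 CPM in these cells was 1.69 at the high dose (1.05 to 2.40) and 1.61 at the low dose (0.96 to 2.32). In Foxp3-negative cells it was 0.81 (0.35 to 1.29) and 0.26 (-0.26 to 0.79). The high dose ratios rest on 177 UMIs in Foxp3-positive and 179 in Foxp3-negative cells. The cell with 52 Tnfrsf4 UMIs lies in 1 of these 2 sets, and the ratios without it were not computed. Whether the Foxp3-positive and Foxp3-negative cells differ in this respect was not tested.

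**Figure D5:**
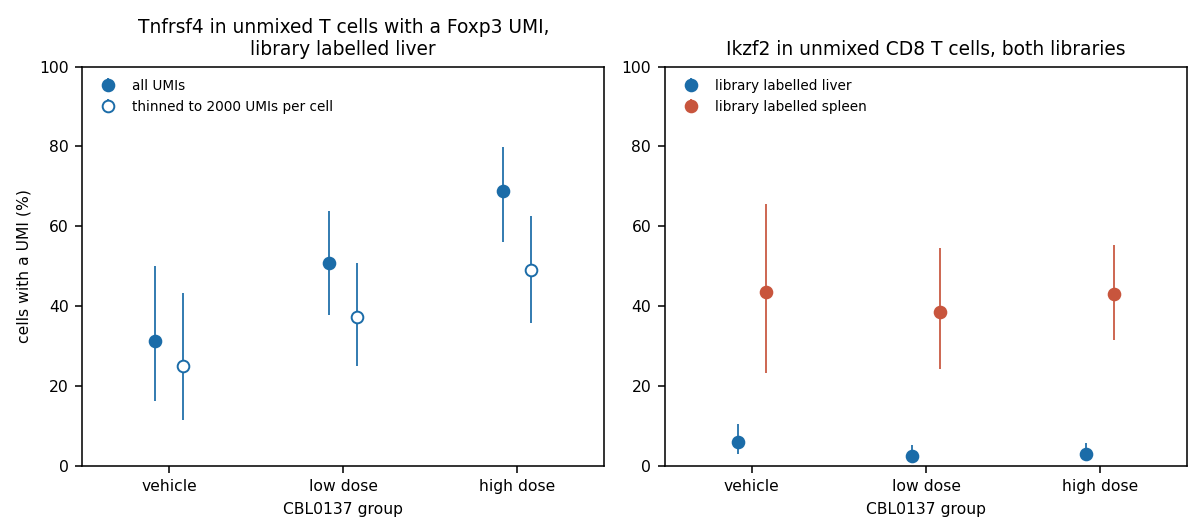
Left, share of Foxp3-positive unmixed T cells with a Tnfrsf4 UMI in the liver-labelled library, by group; right, share of CD8 unmixed T cells with an Ikzf2 UMI, by group and library. Shares are in percent with exact 95% Clopper-Pearson intervals; the Tnfrsf4 shares are 31.2%, 50.8% and 68.8%, and the Ikzf2 shares are 38.6% to 43.5% in the spleen-labelled library and 2.45% to 5.85% in the liver-labelled library.

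Izumo1r, the folate receptor 4 of regulatory and anergic T cells, was 71.5, 79.0 and 109 CPM in unmixed T cells of the liver-labelled library, with a log2 ratio of 0.60 at the high dose (0.38 to 0.83). In the spleen-labelled library Izumo1r was highest in vehicle, with 118 CPM in vehicle (20 UMIs in 9 cells), 30.6 CPM at the low dose (15 UMIs in 11 cells) and 66.2 CPM at the high dose (64 UMIs in 27 cells). The log2 ratio there was -0.84 at the high dose (-1.58 to -0.03) and -1.95 at the low dose (-3.02 to -0.91). Over all T cells of that library the Izumo1r log2 ratio at the high dose was 0.60, only just past the 1.5-fold rule.

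Taken over all unmixed T cells of the liver-labelled library together, Ikzf2, Il2ra and Tnfrsf18 differed little between the groups. Ikzf2 was 88.7, 77.8 and 104 CPM with a log2 ratio of 0.22 at the high dose (0.01 to 0.43). Il2ra was 16.6, 14.2 and 21.3 CPM with 0.36 (-0.12 to 0.86). Tnfrsf18 was 108, 124 and 118 CPM with 0.12 (-0.07 to 0.32). Over all T cells the same genes had log2 ratios of 0.92, 1.06 and 0.81. Split by Foxp3, the Ikzf2 ratio in unmixed T cells at the high dose was 0.32 (0.04 to 0.61) in Foxp3-positive and -0.34 (-0.66 to -0.01) in Foxp3-negative cells. At the low dose it was -0.53 (-0.85 to -0.21) and -0.66 (-1.04 to -0.29). The high dose ratios of Tnfrsf18 were 0.52 (0.04 to 1.02) and -0.02 (-0.23 to 0.19), and those of Il2ra -0.17 (-0.79 to 0.48) and 0.71 (-0.07 to 1.56). In unmixed T cells of the spleen-labelled library, Il2ra was 17.7, 51.0 and 55.9 CPM, with a log2 ratio of 1.66 at the high dose (0.03 to 3.98), on few UMIs in vehicle.

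Maf, the c-MAF factor, was 49.0, 60.4 and 74.6 CPM in unmixed T cells of the liver-labelled library, with a log2 ratio of 0.61 at the high dose (0.34 to 0.88). The Maf ratio was 1.01 (0.66 to 1.37) in Foxp3-negative cells and -0.41 (-0.86 to 0.05) in Foxp3-positive cells. In the spleen-labelled library Maf was 114, 85.4 and 277 CPM over all T cells and 82.7, 83.6 and 201 CPM over unmixed T cells, and both gave a log2 ratio of 1.28. Macrophage or monocyte markers summed to 2033, 1816 and 2998 CPM in all T cells of that library and to 23.6, 26.5 and 35.2 CPM in the unmixed ones. Endothelial markers, whose class had the highest Maf level, summed to 48.2, 34.4 and 245 CPM in all T cells and to 11.8, 8.16 and 11.4 CPM in the unmixed ones.

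Rora was 23.8, 24.6 and 32.9 CPM in unmixed T cells of the liver-labelled library, with a log2 ratio of 0.46 at the high dose (0.07 to 0.87). Gata3 was 47.3, 54.4 and 45.1 CPM with -0.069 (-0.37 to 0.23), and its ratio over all T cells was 0.73. Tbx21, the type 1 factor, was low throughout, at 3.97, 6.27 and 7.69 CPM (12, 27 and 47 UMIs), with a log2 ratio of 0.95 at the high dose (0.02 to 2.0). Within unmixed CD4 T cells Tbx21 had 1 UMI in vehicle and 25 at the high dose, a log2 ratio of 3.33 (0.72 to 8.69). In unmixed CD8 T cells the Tbx21 ratio lay on the other side of 0, with 11 UMIs in vehicle and 8 at the high dose, -1.26 (-2.78 to 0.19). Natural killer cells also use Tbx21, and their markers summed to 65.9, 63.9 and 101 CPM in the unmixed T cells of the 3 groups, and their part in the Tbx21 values was not tested. Of the other genes in unmixed CD4 T cells, Tnfrsf4 had a log2 ratio of 1.60 (1.05 to 2.19), Izumo1r of 0.89 (0.55 to 1.24) and Maf of 0.59 (0.24 to 0.96). With mixed CD4 T cells included, these ratios were 1.00 (0.59 to 1.43), 0.95 (0.64 to 1.27) and 0.21 (-0.07 to 0.50). The Tnfrsf4 and Maf ratios were thus smaller with the mixed cells, and the Maf interval then holds 0.

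The remaining levels of the spleen-labelled library rest on 36 vehicle cells and have wide intervals. Foxp3 was 35.4, 12.2 and 23.8 CPM in unmixed T cells (6, 6 and 23 UMIs), with a log2 ratio of -0.57 at the high dose (-1.91 to 1.01). These Foxp3 values leave out 75 unmixed T cells without an HTODemux call, which held 30 Foxp3 UMIs. A0310, the high dose hashtag, was the most frequent in all 75, so the side of this ratio depends on the hashtag calls. Ikzf2 was 183, 190 and 172 CPM, so its groups lay close together among T cells with a call. Tnfrsf18 was 148, 184 and 216 CPM with 0.55 (-0.05 to 1.21), and Rora was 23.6, 75.5 and 64.1 CPM with 1.44 (0.01 to 3.36). Both Gata3, at 35.4, 69.4 and 62.1 CPM, and Tbx21, at 23.6, 36.7 and 38.3 CPM, had intervals of the ratio that hold 0. These levels too leave out the 75 unmixed T cells without a call. Those cells held Ikzf2 at 407 CPM, Il2ra at 204 CPM, Tnfrsf4 at 230 CPM and Tnfrsf18 at 341 CPM, each above the high dose level. Maf, at 128 CPM, and Tbx21, at 8.85 CPM, were below it.

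The libraries were also compared in CD8 T cells. Ikzf2, which encodes Helios, was 183 CPM in unmixed CD8 T cells of the spleen-labelled library and 10.4 CPM in those of the liver-labelled library, which gave a log2 ratio of 4.13 (3.64 to 4.65). It had a UMI in 58 of 139 cells (41.7%, 33.4 to 50.4) against 24 of 692 (3.47%, 2.23 to 5.12). The difference was present in each group: 43.5% against 5.85% in vehicle, 38.6% against 2.45% at the low dose and 43.1% against 2.90% at the high dose. After all CD8 T cells were thinned, the Ikzf2 shares were 15.6% against 3.24%, 19.0% against 1.15% and 20.4% against 2.16%. The log2 ratio of Ikzf2 was 3.83 (3.00 to 4.66) in CD8 T cells with fewer than 2 natural killer marker UMIs and 3.85 in those with at least 2.

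In the same CD8 T cells, the 3 groups together, Tnfrsf4 was 78.5 CPM in the spleen-labelled library and 1.66 CPM in the liver-labelled library. The log2 ratio was 5.57 (4.44 to 6.94), with a UMI in 26 of 139 against 7 of 692 cells. In vehicle, low and high dose, the Tnfrsf4 UMIs were 3, 35 and 26 in the spleen-labelled library and 1, 0 and 6 in the other. Most of these UMIs thus came from the dose groups, and the vehicle contrast rests on 3 against 1. Tbx21 had a log2 ratio of 2.0 (1.17 to 2.82) in the same direction. Tissue, library and run cannot be told apart here, since each label is 1 library. Over all vehicle T cells, 1 of 9 members was past 1.5-fold higher in the spleen-labelled library (Maf), against 24.7% of genes, and 0 were lower, against 15.6%. In unmixed vehicle T cells 5 of 9 were higher (Foxp3, Ikzf2, Tnfrsf4, Izumo1r and Maf), against 23.3%, and 0 lower, against 27.7%, on 36 cells of the spleen-labelled library.

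Other genes of the same programs were counted in the T cells of the liver-labelled library, high dose against vehicle. The all-gene shares past the fold were 29.0% higher and 8.87% lower in all T cells, and 8.27% and 3.96% in unmixed ones, and each list stands beside these. Over all T cells the T cell markers were themselves higher at the high dose, as given above. Of 24 Treg program genes 18 could be counted, of which 8 were past the fold higher and 2 lower (median log2 ratio 0.46), and in unmixed T cells 4 and 0 (0.21). Icos, a costimulatory receptor, had a log2 ratio of 1.98 and 1.47 in unmixed T cells (1.07 to 1.88), and Tnfrsf9 (4-1BB) of 1.98 and 1.59. Socs2, a cytokine signaling inhibitor, had 1.39 and 1.20, and Il2rb, the interleukin-2 receptor beta chain, 1.16 and 0.50. On the spleen-labelled side, unmixed T cells had Tnfrsf9 at -0.82 (-1.29 to -0.33). It is given as a gene with the other sign, and the dose ratios there of the other named list genes are not shown.

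Of 12 type 1 helper genes 11 could be counted, with 8 higher and 1 lower (median 0.91) and in unmixed T cells 3 and 0 (0.29). Ifng, the type 1 cytokine interferon gamma, had 3 UMIs in vehicle and 36 at the high dose, and 1 and 35 in unmixed T cells. Cxcr3, a chemokine receptor, had a log2 ratio of 1.51 and 0.87, Il12rb1, an interleukin-12 receptor chain, of 1.32 and 1.26, and Eomes of 1.40 and 0.48. Of 9 follicular helper genes 8 could be counted, with 7 higher and 0 lower (median 1.20) and 3 and 0 in unmixed T cells (0.33). Tox2 had 2.84 and 2.28, the chemokine receptor Cxcr5 1.71 and 1.68, and Cd40lg, which activates B cells, 1.20 and 0.30.

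Of 10 type 2 genes 6 could be counted, with 2 higher and 1 lower (median 0.15), and of 5 in unmixed T cells none was past the fold (-0.21). Ccr4 had a log2 ratio of 1.45 and 0.54, Il4 of 1.42 on 17 against 6 UMIs, Nfil3 of -1.29 and 0.23, and Il1rl1 (ST2) of 0.33 and -0.28. Of 10 type 17 genes 4 could be counted, with 3 higher and 0 lower (median 0.72), and 1 and 0 in unmixed T cells (0.40). The aryl hydrocarbon receptor gene Ahr had 1.38 in both, Batf 0.75 and 0.56, Ccr6 0.69 and 0.24, and Stat3 -0.09 and -0.23. Il17a and Il17f did not reach the UMI minimum. In unmixed T cells of the spleen-labelled library the counts past the fold in the higher and lower direction were 4 and 3 of 13 for the Treg program, 3 and 0 of 11 for type 1, 0 and 1 of 3 for type 2, 1 and 1 of 3 for type 17, and 1 and 1 of 5 for follicular helper genes, beside 27.8% and 11.8% of all genes.

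The 10 other genes most like Foxp3, by the ratio of CPM in Foxp3-positive over Foxp3-negative T cells of the liver-labelled library, were Igkv5-48, Meg3, Klrg1, Tnfrsf9, Ctla4, Il1rl1, Gm28112, Lamc1, Epcam and Nrn1. The first of them rest on 1 cell each: Igkv5-48 (log2 ratio 9.47) and Meg3 (5.88) had their 31 UMIs in a single Foxp3-positive cell, and neither had a UMI in unmixed Foxp3-positive cells. Klrg1, a receptor of differentiated T cells, had a log2 ratio of 5.63 and of 4.83 in the spleen-labelled library, there with 14 of 23 UMIs in 1 cell. Ctla4, the inhibitory receptor of regulatory T cells, had 5.11 and 2.74. Il1rl1, the interleukin-33 receptor of tissue regulatory T cells, had 5.03 and 1.90, the latter on 5 UMIs in 3 Foxp3-positive cells. Tnfrsf9 had 5.22 and 1.06. Gm28112 had 4.84 and 2.33, the latter on 3 UMIs (-0.09 to 4.12). Lamc1, a laminin chain, had 4.56 and 1.71, the latter on 6 UMIs (0.20 to 2.93). Epcam, a gene of the tumor cell list, had 4.43 on 35 UMIs in 15 cells, with 15 of the UMIs in 1 cell. In unmixed T cells it had 3.22, but that selection itself uses Epcam UMIs in the tumor gate. Nrn1 had 4.36 on 11 cells but -1.66 in the spleen-labelled library, there on 3 UMIs in 1 Foxp3-positive cell.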

How the data were processed

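Single-cell RNA was measured in 2 droplet libraries of 3 hashtag groups each. The deposited values are UMI counts for each gene and hashtag in the barcodes that passed cell calling, not normalized, which the authors made with Cell Ranger (6.0.0 in the submitters' processing notes, 5.0.0 in the matrix header) on mm10. The members and lists were chosen with earlier results of these data known.

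HTODemux (Seurat 5.3.0, R 4.3.3, Matrix 1.6.5) assigned the hashtags, and barcodes with 1 hashtag were kept, which removed doublets between hashtags. No caller was run for doublets within a hashtag, which the unmixed T cells address in part. The other gates were at least 3 UMIs of B cell, macrophage or monocyte, endothelial or tumor markers, at least 2 of dendritic cell markers or, in barcodes without Cd3 UMIs only, natural killer markers, 5% of UMIs from neutrophil markers or 1% from hepatocyte markers. No filter on mitochondrial UMIs was applied. UMIs were summed over cells and scaled to CPM with exact Poisson intervals, ratios have exact conditional binomial intervals and shares exact Clopper-Pearson intervals, at a level of 95%. Where nothing was counted, 3 counts were taken as the limit. Cells were thinned to 2000 UMIs with a fixed seed, and shallower cells were left out. Python 3.11.15, numpy 2.4.6, scipy 1.17.1, pandas 2.3.3 and matplotlib 3.10.9 were used. The ratios were also run on simulated data for the high dose against vehicle, drawn as independent Poisson counts, which the intervals assume. There, 95.7% of 9911 intervals (liver label) and 96.3% of 6748 (spleen label) held the true value. Of the 200 genes changed 2-fold, 99.5% and 98.0% had the right direction, and 95.5% and 87.5% were past the fold. Among the unchanged genes 2.83% and 8.86% were past it. The simulation left out UMIs that come together in 1 cell, so it cannot show how well the intervals hold in these data.

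The named genes were the 10 members, up to 4 of each list with the largest absolute log2 ratio at the high dose in all T cells of the liver-labelled library with at least 20 UMIs, and the 10 non-members with the largest ratio between Foxp3-positive and Foxp3-negative T cells and at least 30 UMIs in the former. Tnfrsf4 in Foxp3-positive cells, Ikzf2 in CD8 T cells and the Gata3, Maf, Rora and Tbx21 pairs were singled out after their values were seen. Alternative settings were at least 3 Cd3 UMIs, MULTIseqDemux, the dominant hashtag, unmixed T cells, at least 200 genes with under 10% mitochondrial UMIs, CPM without the 20 most abundant genes, a mean over cells, other UMI minimums, a fold of 2, other thinning, all T cells for the Foxp3 share and CD4 T cells alone. Barcodes that HTODemux left without a call appear only in this report's closing section and where MULTIseqDemux or the dominant hashtag gave them a group. The result for 1 gene of the lists is not reported here.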

Additional observations from a re-analysis of the deposited data

Results flagged for a closer look

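Izumo1r went opposite ways in the unmixed T cells of the libraries, while over all T cells it was past the fold higher at the high dose in both. In the spleen-labelled library it was only just past, at 35.7 CPM against 23.5 CPM in vehicle. Izumo1r was not past the fold there with MULTIseqDemux, with at least 3 Cd3 UMIs or without the 20 most abundant genes. In unmixed T cells, its log2 ratio of high dose over vehicle was 0.60 in the liver-labelled library and -0.84 in the spleen-labelled library, and the intervals (0.38 to 0.83 and -1.58 to -0.03) do not overlap. The difference itself was not tested, since each group is 1 pooled sample, and the vehicle value of the spleen-labelled library rests on 36 cells.

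T cells that HTODemux left without a hashtag call, which entered no comparison made with its calls, also held transcripts of the 10 genes. In the liver-labelled library 30 such T cells held 36 UMIs of them, with Foxp3 in 1 cell. In the spleen-labelled library 79 such T cells held 415 UMIs. Foxp3 had a UMI in 12 of these 79 cells (15.2%, 8.10 to 25.0) and a level of 105 CPM (71.0 to 150), against 16 of 459 (3.49%) and 8.48 CPM in T cells with a call. Without barcodes of another class it was 12 of 75 (16.0%) against 11 of 261 (4.21%). Tbx21 had a UMI in 2 of 79 against 68 of 459. The levels of Ikzf2, Il2ra, Tnfrsf4 and Tnfrsf18 were 323, 161, 182.5 and 270 CPM, against 85.8, 25.6, 56.7 and 93.3 CPM with a call. Maf was lower, at 102 against 187 CPM. The most frequent hashtag was A0310 in all 79 cells, and their median hashtag count was 692 UMIs against 1876 in T cells with a call. HTODemux did not assign them to a group, and a cause was not tested. The 2 alternative callings, MULTIseqDemux and the dominant hashtag, could place such cells in a group.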

How the results depend on the processing

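The filter on genes and mitochondrial UMIs, the 50-UMI minimum and CPM without the 20 most abundant genes moved no count of members by over 1.5 times. In unmixed T cells, the log2 ratio at the high dose turned to -0.092 for Ikzf2 and -0.84 for Izumo1r in the spleen-labelled library and to -0.069 for Gata3 in the liver-labelled library. As a mean over cells, the ratio turned to -0.36 for Izumo1r at the high dose and to -0.074 for Tnfrsf4 and -0.26 for Tnfrsf18 at the low dose, all in the spleen-labelled library. There, co-expression with Foxp3 in CD4 T cells alone turned to -0.48 for Rora and -0.40 for Gata3. Apart from these reversals, many ratios of the 2 libraries moved in size. For co-expression, 13 moved and 2 did not in CD4 T cells alone, and 12 and 5 in unmixed T cells. For the high dose, 11 moved and 6 did not in unmixed T cells, and 12 and 7 as a mean over cells. In the liver-labelled library, the 10 members higher at the high dose became 5 at a fold of 2 and 4 in unmixed T cells, and the 3 at the low dose became 1 at a fold of 2. In the spleen-labelled library, the 7 at the low dose became 4 at a fold of 2 and 4 with MULTIseqDemux. Members lower there went from 0 to 1 in unmixed T cells at the high dose, and at the low dose to 1 in unmixed T cells and 2 with MULTIseqDemux. Of vehicle T cells, the 1 member higher in the spleen-labelled library became 2 with no UMI minimum, 3 with the dominant hashtag, 3 with at least 3 Cd3 UMIs, 5 with MULTIseqDemux and 5 in unmixed T cells. The share of CD4 T cells with a Foxp3 UMI in the liver-labelled library was 2.05% at the low and 2.45% at the high dose when thinned to 1000 UMIs, and 6.94% in vehicle and 7.85% at the low dose unthinned. The cause of these moves was not tested. No paired analysis was possible because each group is 1 pooled sample per library, and for the same reason no replicate could be left out. Depth limits Foxp3 and Tbx21 among the members. The spleen-labelled library, with 36 unmixed vehicle T cells, limits every ratio to vehicle drawn in it. Its co-expression ratios with Foxp3 rest on 16 Foxp3-positive T cells, 11 of them unmixed.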
